A study of Mus musculus with 6 samples.

Results

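Genes whose products exchange, cotransport or conduct chloride, bicarbonate and protons, with the carbonic anhydrases that supply bicarbonate, were described in mouse type II alveolar cells. They were taken by symbol, as all genes of the Slc4a, Slc9a, Slc12a, Slc26a, Car, Clcn and Ano families with a probe set that carries exactly 1 gene symbol, and they make up 70 of the 19938 genes tested. Where a gene had several probe sets, the one with the highest mean was used. The rule goes by symbol alone, but it was chosen with earlier results of these data known. Among the genes it takes by name are the scaffolds Slc9a3r1 and Slc9a3r2 and the nuclear protein gene Slc4a1ap, none of them a transporter gene, and Car8, Car10 and Car11, for proteins related to carbonic anhydrases.

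Messenger RNA was measured on 6 arrays, each of 1 pool of type II alveolar epithelial cells from 3 mice aged 8 weeks. In the 3 pools labelled knockout the mice carried SP-C-rtTA, (tetO)7CMV-Cre and Gpr116flx/flx. In the 3 control pools they carried SP-C-rtTA and (tetO)7CMV-Cre with no conditional allele, so Cre was present in both groups. Cre expression in this system is driven through the surfactant protein C promoter and needs doxycycline. In which cells the receptor gene was lost was not tested. Cells were released with collagenase and enriched by differential plating, per the labels. The comparison asks how transcripts of these cells differ when the adhesion receptor Gpr116 is deleted in them.

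Type II cells line the alveolus together with type I cells, and they make surfactant and help to set the volume and acidity of the thin liquid layer above them. Chloride enters such cells through cotransporters and exchangers and leaves through apical channels, while bicarbonate is made from carbon dioxide by carbonic anhydrases and carried by the Slc4 and Slc26 proteins. Sodium-proton exchangers of the Slc9 family and chloride-proton exchangers of the ClC family set the pH of the cytosol and of endosomes, lysosomes and related organelles.

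Gpr116, listed as Adgrf5, read 11.89, 11.78 and 11.87 in the knockout-labelled pools, against 11.49, 11.53 and 11.51 in control pools, in log2 units. By the test described below it was higher in knockout-labelled pools, by 0.34 ± 0.05 (SE; limma adjusted p = 0.0119). The sources do not place its single probe set inside or outside the deleted part of the gene, so it checks no label, and directions below rest on the labels. Xist and Y-linked genes showed 1 male pool in each group, knockout-labelled 2 and control 1. The 10 type II markers averaged 12.12 to 12.18 in knockout-labelled pools and 12.05 to 12.07 in control pools, on a scale whose array maxima were 13.32 to 13.43. Of these 10, 2 passed the adjusted p threshold of 0.05 as higher, against 3.36% of all genes, and 0 as lower. Markers of ciliated cells averaged 7.97 to 8.49 in knockout-labelled pools and 9.03 to 9.09 in control pools. Club cell markers averaged 9.54 to 9.82 in knockout-labelled and 10.10 to 10.19 in control pools. By the same threshold 10 of 11 ciliated and 5 of 8 club cell markers passed as lower, against 5.13% of all genes. Mcidas and Scgb1a1 were also lower with groups apart, without a call. Krt4 (-0.18) and Scgb3a1 (0.08) overlapped between groups. In pooled cells, fewer cells of a type and less RNA per cell cannot be told apart.

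Values are log2 RMA expression, and differences are knockout-labelled minus control from limma, with p-values adjusted by Benjamini-Hochberg over all 19938 genes and a threshold of 0.05. At that threshold 4 of the 70 members rose, 5 fell and 61 did not pass. That is 5.71% higher against 3.36% of all genes tested, 7.14% lower against 5.13%, and 12.9% in either direction against 8.49%. In 26 members (37.1%, against 27.6% of all genes) no array of one group lay within the range of the other. These were 15 higher (21.4%, against 14.8%) and 11 lower (15.7%, against 12.8%). The median difference of the members was 0.013, beside 0.0033 over all genes. With each array centred on its median 6 rose and 3 fell. Without control 1, control 2 or control 3 the number that rose was 1, 1 and 2, and the number that fell was 2, 1 and 1. Without knockout-labelled 3, 3 rose and 2 fell, and without knockout-labelled 1, 4 rose and 9 fell. The anion exchanger gene Slc26a4 and the bicarbonate cotransporter gene Slc4a5 kept their calls in all 6 fits that left out 1 array.

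**Figure D1:**
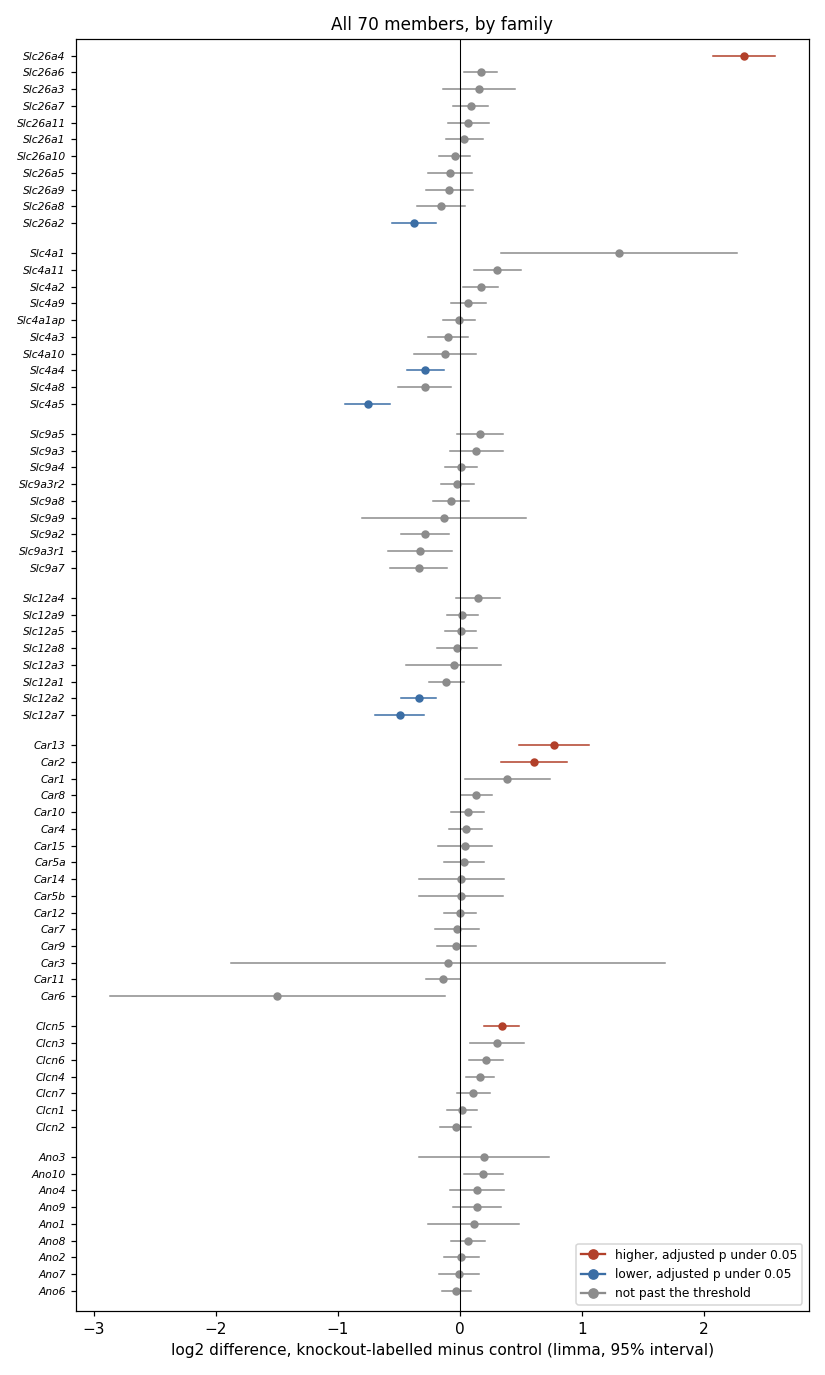
Log2 difference of each of the 70 members, knockout-labelled minus control, with the 95% interval of the limma fit, grouped by family and sorted within it. Slc26a4 lies at 2.33, beyond every other member, the 4 genes that rose are red, the 5 that fell are blue, and the widest intervals belong to Car3, Car6 and Slc4a1.

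RefSeq promoter windows (GRCm38.p6, 250 bases before to 50 after a transcript start) were used for 5 of the 9 called members, and the windows of the largest rises and falls among these are shown so that the genes the results turn on can be compared. Where a gene has several starts, the first listed window is given. Capitals mark matches, on either strand, to any of 7 motifs searched. The TATA box was searched as TATAAA and lies in 13.6% of 32851 windows of this length. The CCAAT box lies in 37.4% of them, and the GC box, searched as GGGCGG, in 35.7%. The C/EBP site, TTGCNNAA, lies in 10.8%, and the STAT site with the shorter spacer, TTCNNNGAA, in 8.30%. The STAT site with a spacer 1 base longer lies in 6.95% and the NF-kappaB site in 1.63%. The STAT motifs can overlap each other.
Slc26a4, chr12:31559935-31560234, minus strand: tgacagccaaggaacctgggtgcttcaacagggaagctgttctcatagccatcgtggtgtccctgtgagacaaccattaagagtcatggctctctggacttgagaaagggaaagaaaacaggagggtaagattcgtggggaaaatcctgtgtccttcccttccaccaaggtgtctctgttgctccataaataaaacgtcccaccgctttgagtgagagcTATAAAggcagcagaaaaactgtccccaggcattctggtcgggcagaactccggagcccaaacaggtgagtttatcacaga
Clcn5, chrX:7319309-7319608, minus strand: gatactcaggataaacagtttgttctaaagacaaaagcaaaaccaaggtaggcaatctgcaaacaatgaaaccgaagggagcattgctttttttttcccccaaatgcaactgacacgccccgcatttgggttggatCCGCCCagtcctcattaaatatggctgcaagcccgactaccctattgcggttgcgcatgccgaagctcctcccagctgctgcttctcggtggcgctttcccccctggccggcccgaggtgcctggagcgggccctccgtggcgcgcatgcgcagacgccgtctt
Slc12a7, chr13:73763410-73763709, plus strand: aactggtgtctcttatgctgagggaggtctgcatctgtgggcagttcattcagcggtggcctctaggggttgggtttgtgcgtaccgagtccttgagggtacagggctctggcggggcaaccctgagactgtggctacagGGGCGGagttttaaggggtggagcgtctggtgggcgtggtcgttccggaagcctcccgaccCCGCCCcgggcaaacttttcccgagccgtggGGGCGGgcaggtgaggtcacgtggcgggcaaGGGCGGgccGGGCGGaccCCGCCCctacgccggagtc
Slc4a5, chr6:83237125-83237424, plus strand: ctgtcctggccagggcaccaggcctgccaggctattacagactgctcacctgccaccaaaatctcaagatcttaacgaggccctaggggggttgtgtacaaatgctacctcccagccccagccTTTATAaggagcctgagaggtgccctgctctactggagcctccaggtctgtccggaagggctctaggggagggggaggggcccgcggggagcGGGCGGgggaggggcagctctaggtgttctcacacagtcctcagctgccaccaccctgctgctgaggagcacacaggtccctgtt
The Slc26a4 window holds 6 CG pairs and 1 match, a TATA box that begins at -31, counted from the start. The Slc12a7 window has 6 GC boxes and 23 CG pairs at 66.7% G and C, and the Clcn5 window has 1 GC box and 19 CG pairs. Slc4a5 has a GC box at -35 and a reversed TATA box at -127. No CCAAT, STAT, C/EBP or NF-kappaB match of these letters lies in the 4 windows, which says only that the letters are not there.

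Slc26a4, the gene for pendrin, an exchanger of chloride for bicarbonate and other anions in airway, kidney and inner ear, rose 5.03-fold. It read 8.17, 8.46 and 8.42 in knockout-labelled pools, against 6.18, 6.02 and 5.86 in control pools. The groups lay 1.99 apart at their nearest, while the arrays spanned 0.29 within the knockout-labelled pools and 0.32 within the control pools. The log2 difference was 2.33 ± 0.11 (SE, n = 3 each; limma adjusted p = 0.000639), and it ran from 2.25 to 2.42 as single arrays were left out (adjusted p up to 0.0116). A fit to genes at or above the median level did not test it, since its mean fell just below that level. The table holds no detection calls, so whether the control values stood above background is not known, and the fold is that of RMA values.

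The other 10 Slc26 genes did not share this rise. Slc26a2, a sulfate transporter gene, read 9.72, 9.59 and 9.82 in knockout-labelled pools and 10.05, 10.02 and 10.18 in control pools. It fell by 0.37 ± 0.08 (SE; limma adjusted p = 0.0303), with groups that did not overlap. That call was lost without control 1 (adjusted p = 0.0967), control 2 (0.0875) or control 3 (0.119), and with arrays centred on their medians (0.0505). Slc26a9, a chloride channel and transporter gene of airway and stomach, read 10.98, 11.14 and 11.14 in knockout-labelled pools, against 11.07, 11.14 and 11.31 in control pools. Its groups overlapped, and the 95% interval of the difference was -0.28 to 0.10. Slc26a6, an anion exchanger gene, stood at 0.17 ± 0.06 with groups apart and no call (adjusted p = 0.140). The remaining 7 differences lay between -0.15 and 0.16.

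**Figure D2:**
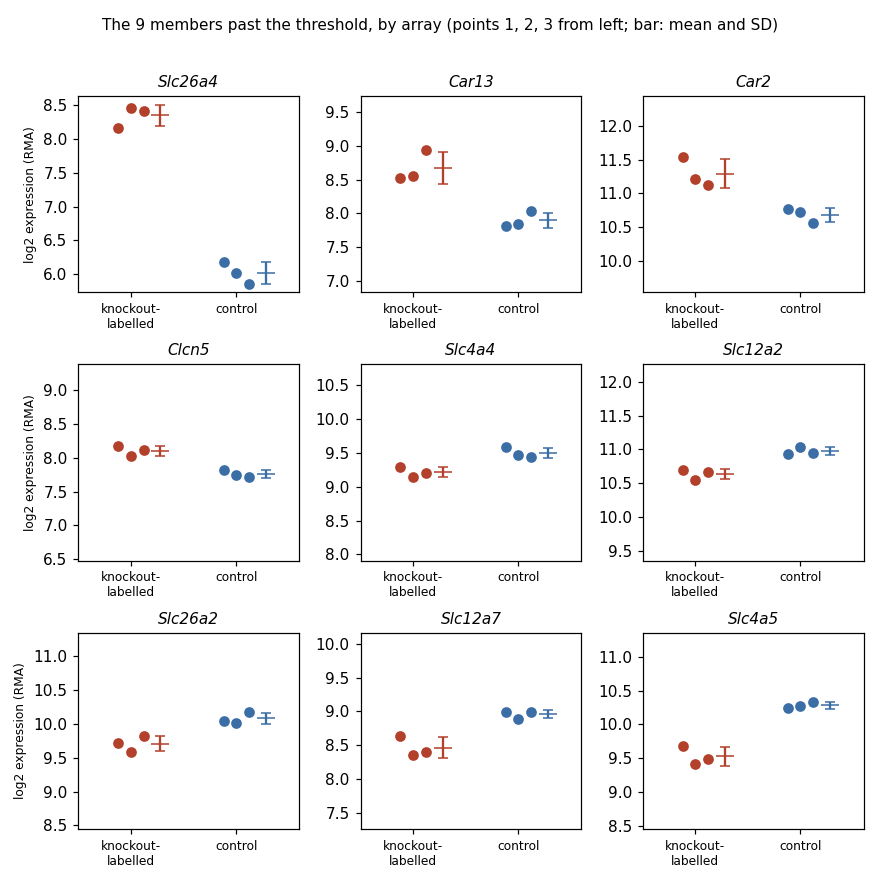
Log2 expression of the 9 called members on each array, knockout-labelled pools left and control pools right, with the mean and SD beside the points. All panels span the same log2 range, in none do the groups overlap, and the gap is widest for Slc26a4 (8.17 or more in knockout-labelled pools, 6.18 or less in control pools).

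Genes of sodium bicarbonate cotransport, which carry bicarbonate together with sodium, were lower or without a call. Slc4a5, an electrogenic cotransporter gene, read 9.68, 9.41 and 9.49 in knockout-labelled pools and 10.24, 10.27 and 10.33 in control pools. The groups lay 0.56 apart at their nearest. It fell by 0.75 ± 0.08 (SE, n = 3 each; 1.69-fold lower; limma adjusted p = 0.00467), and its adjusted p stayed at or below 0.0364 whichever array was left out. Slc4a4, the gene of the basolateral cotransporter of many epithelia, read 9.29, 9.15 and 9.21 in knockout-labelled pools and 9.59, 9.47 and 9.44 in control pools. It fell by 0.28 ± 0.06 (limma adjusted p = 0.0416), a call lost without knockout-labelled 2 (0.0748), knockout-labelled 3 (0.117), control 1 (0.137), control 2 (0.130) or control 3 (0.0995), with median centring (0.0575) and with pool sex as a covariate (0.0756).

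The sodium-driven chloride-bicarbonate exchanger gene Slc4a8 had the same order of groups, at 6.88, 6.54 and 6.61 in knockout-labelled pools against 7.00, 6.96 and 6.93 in control pools. It did not pass (-0.29 ± 0.09, limma adjusted p = 0.118), though it did with array weights (0.0425) and without knockout-labelled 1 (0.00856). Slc4a10, a related cotransporter gene, overlapped between groups at -0.12 ± 0.11. Of these 4 genes 2 fell (5.13% of all genes did), and 3 were lower with groups apart (12.8% of all genes). Ciliated marker means lay lowest on knockout-labelled 3, whereas Slc4a4, Slc4a5, Slc4a8 and the club marker mean lay lowest on knockout-labelled 2. What part these airway cells have in the lower values was not tested.

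**Figure D3:**
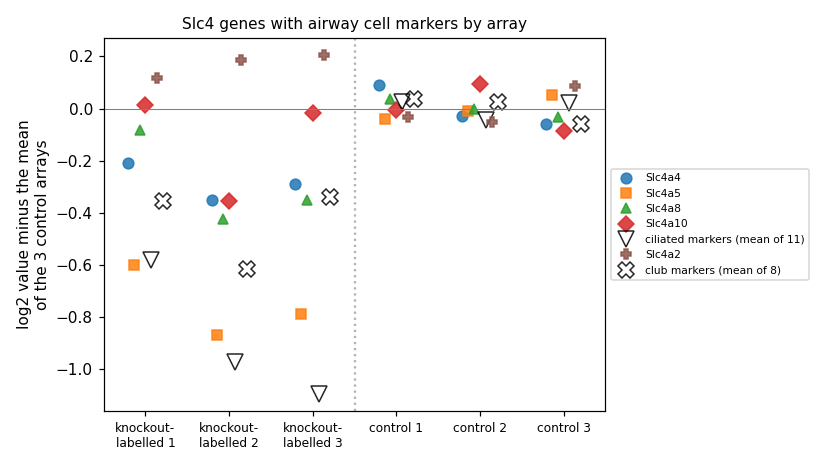
Log2 values of 5 Slc4 genes and the means of 11 ciliated and 8 club cell markers on each array, minus the mean of the 3 control arrays. The cotransporter genes Slc4a4, Slc4a5 and Slc4a8 and both marker means lie below 0 in all knockout-labelled pools, while the exchanger gene Slc4a2 lies above its control values there.

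Chloride-bicarbonate exchangers of the same family had no call. Slc4a2, the exchanger gene found in most epithelia, read 9.06, 9.13 and 9.15 in knockout-labelled pools and 8.91, 8.89 and 9.03 in control pools, a difference of 0.17 ± 0.06 (limma adjusted p = 0.149) with groups apart by 0.03. Slc4a3 differed by -0.09 ± 0.07 with overlapping groups, and its dimmer probe set by -0.020. Slc4a11, which encodes a transporter of protons rather than bicarbonate, read 7.23, 7.04 and 7.13 in knockout-labelled pools against 6.81, 6.96 and 6.71 in control pools. At 0.31 ± 0.08 it came close to the threshold (limma adjusted p = 0.0699) and passed with median centring (0.0472).

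Slc4a1, the gene of the red cell anion exchanger band 3, read 11.07, 10.27 and 9.73 in knockout-labelled pools and 9.53, 9.31 and 8.32 in control pools. Its difference of 1.30 ± 0.41 was the second largest positive one among the members, and it did not pass without the block (limma adjusted p = 0.112). With the replicate number as a block it did (0.00949). The groups were apart by 0.20, less than the 1.34 spanned by the knockout-labelled pools. The mean of the 5 erythroid markers measured of 12 listed was 9.31, 8.57 and 8.42 in knockout-labelled pools and 8.32, 8.20 and 7.82 in control pools. In limma 0 of the 5 passed. The array order of the mean was that of Slc4a1, as it was for Epb42 and Ermap, but not for every marker. Alas2 read 11.63, 10.30 and 10.32 in knockout-labelled pools against 10.70, 10.61 and 9.69 in control pools, with overlapping groups. Tfrc was highest on knockout-labelled 3 (10.67), and Klf1 was lowest on control 2 (6.40). Epb42, the gene of a protein that binds band 3 in red cells, read 8.62, 7.71 and 7.26 in knockout-labelled pools against 6.99, 6.83 and 6.28 in control pools. The part of red cell RNA in the Slc4a1 difference was not tested.

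Carbonic anhydrases interconvert carbon dioxide and bicarbonate. Of the 16 measured genes 2, both for cytosolic enzymes, rose, against 3.36% of all genes. Car13 read 8.52, 8.55 and 8.94 in knockout-labelled pools and 7.82, 7.85 and 8.03 in control pools. It rose by 0.77 ± 0.12 (SE, n = 3 each; 1.71-fold; limma adjusted p = 0.0126), a call lost without control 1 (0.0622) or control 2 (0.0658). Car2, the gene of a fast and widely expressed isoform, read 11.54, 11.21 and 11.13 in knockout-labelled pools and 10.77, 10.72 and 10.57 in control pools. It rose by 0.61 ± 0.11 (1.52-fold; limma adjusted p = 0.0228), a call lost without control 1 (0.0690), control 2 (0.0863) or control 3 (0.101).

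Car1, the gene of a cytosolic isoform abundant in red cells, read 6.50, 6.27 and 6.09 in knockout-labelled pools and 6.18, 5.81 and 5.70 in control pools. These groups overlapped, and the difference of 0.39 ± 0.15 did not pass (limma adjusted p = 0.180), though it did with the replicate number as a block (0.0202). Car2 put the 6 arrays in the order of the erythroid marker mean, highest on knockout-labelled 1 and lowest on control 3. Car13 did not, being highest on knockout-labelled 3. The part of red cell RNA in the Car1 and Car2 differences was not tested. The genes Car13, Car1, Car3 and Car2 follow each other on chromosome 3 in the RefSeq table of GRCm38.p6 with no other protein-coding gene between them. Car3, the gene of a slow isoform of muscle and fat, read 9.03, 6.66 and 8.44 in knockout-labelled pools and 9.47, 7.84 and 7.12 in control pools. Its spread within each group, an SD of 1.23 and 1.20, exceeded its difference of -0.10.

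**Figure D4:**
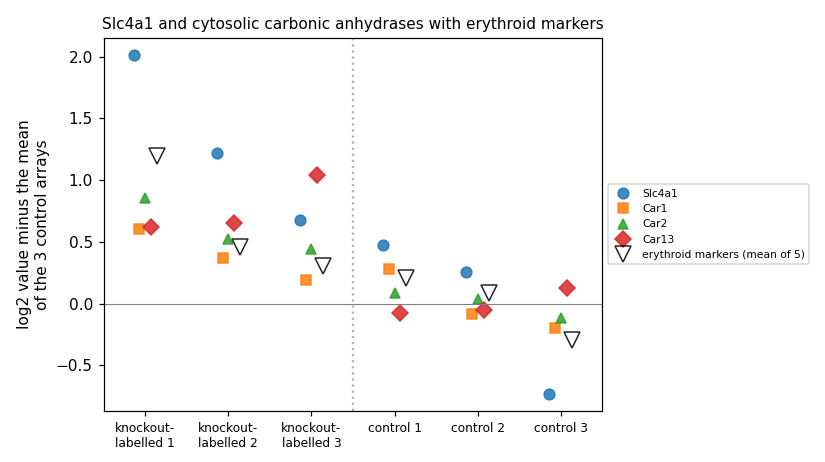
Log2 values of Slc4a1, Car1, Car2 and Car13 and the mean of 5 erythroid markers on each array, minus the mean of the 3 control arrays. Slc4a1, Car2 and the marker mean are highest on knockout-labelled 1 and lowest on control 3, while Car13 is highest on knockout-labelled 3.

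The other carbonic anhydrase genes had no call. Car8, which encodes a related protein without catalytic activity, read 11.63, 11.62 and 11.69 in knockout-labelled pools and 11.56, 11.46 and 11.51 in control pools, at 0.14 ± 0.05 (limma adjusted p = 0.184) with groups apart. Its difference was small beside those of Car2 and Car13. Car6, the gene of a secreted isoform known from saliva, read 4.51, 4.36 and 4.32 in knockout-labelled pools, against 4.41, 6.96 and 6.31 in control pools. Control 1 thus resembled the knockout-labelled pools and the other control pools did not. The difference of -1.50 ± 0.58 had a limma adjusted p of 0.187. Leaving out 1 control pool gave -2.24 without control 1 (adjusted p = 0.0205), -0.96 without control 2 (0.430) and -1.29 without control 3 (0.438), so its size and its call turned on single control pools. Car4, the gene of a membrane-anchored isoform of lung capillary cells, differed by 0.047 ± 0.057. Genes of the mitochondrial isoforms, Car5a and Car5b, differed by 0.033 and 0.0067.

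Cation-chloride cotransport genes fell in 2 of 8 cases, while 5.13% of all genes fell. Slc12a2, the gene of the sodium-potassium-chloride cotransporter that loads epithelial cells with chloride, read 10.69, 10.55 and 10.67 in knockout-labelled pools and 10.93, 11.04 and 10.95 in control pools. It fell by 0.34 ± 0.06 (SE, n = 3 each; 1.26-fold lower; limma adjusted p = 0.0200). The call was lost with a replicate block (0.0516) and without knockout-labelled 3 (0.0535), control 1 (0.0661), control 2 (0.0953) or control 3 (0.0821). Slc12a7, the gene of a potassium-chloride cotransporter that carries chloride out of cells, read 8.64, 8.35 and 8.40 in knockout-labelled pools and 8.99, 8.89 and 8.99 in control pools. It fell by 0.49 ± 0.08 (1.41-fold lower; limma adjusted p = 0.0168), a call lost without knockout-labelled 3 (0.0628), control 1 (0.0771), control 2 (0.0602) or control 3 (0.0843).

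Slc12a4, the gene of another potassium-chloride cotransporter, had a positive difference without a call, at 8.17, 8.41 and 8.18 in knockout-labelled pools and 8.07, 8.10 and 8.14 in control pools (0.15 ± 0.08, limma adjusted p = 0.315). The other 5 genes, among them Slc12a1 and Slc12a3 of the kidney and Slc12a5 of neurons, differed by -0.11 to 0.02. Slc12a2 and Slc12a7, like Slc4a5, lay lowest on knockout-labelled 2.

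Among the ClC genes, 5 encode chloride-proton exchangers of endosomes and lysosomes, Clcn3 to Clcn7. Each was higher in every knockout-labelled pool than in every control pool, an order found in 14.8% of all genes. Of the 5, 1 passed as higher, against 3.36% of all genes. Clcn5, whose protein serves endosomes and whose human counterpart is mutated in Dent disease, read 8.17, 8.02 and 8.11 in knockout-labelled pools and 7.82, 7.74 and 7.71 in control pools. It alone passed, rising by 0.34 ± 0.06 (SE, n = 3 each; 1.27-fold; limma adjusted p = 0.0185). Without knockout-labelled 3 (0.0629), control 1 (0.0533), control 2 (0.0898) or control 3 (0.0887) it did not pass.

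Clcn3 read 8.85, 8.52 and 8.82 in knockout-labelled pools and 8.47, 8.41 and 8.39 in control pools (0.31 ± 0.09, limma adjusted p = 0.103). Clcn6 read 8.20, 8.21 and 8.30 in knockout-labelled pools and 7.99, 7.98 and 8.10 in control pools (0.21 ± 0.06, adjusted p = 0.0764). Clcn4, at 9.33, 9.31 and 9.26 in knockout-labelled pools against 9.15, 9.12 and 9.13 in control pools, differed by 0.17 ± 0.05 (adjusted p = 0.0887). These 3 gaps were small, from 0.05 to 0.11 between the nearest arrays. Clcn4 passed with median centring (0.0496), Clcn4 and Clcn6 passed among the brighter genes alone (0.0442 and 0.0452), and Clcn3 and Clcn6 passed with array weights (0.0308 and 0.0447). Clcn3 also passed without knockout-labelled 2 (0.0118). Clcn7, the lysosomal member, differed by 0.11 ± 0.06 (adjusted p = 0.328).

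Ostm1, which encodes the partner subunit of the Clcn7 protein in lysosomes, read 9.88, 9.75 and 9.97 in knockout-labelled pools and 9.45, 9.33 and 9.29 in control pools. It rose by 0.51 ± 0.08 (SE; limma adjusted p = 0.0101), with a call lost without control 2 (0.0568) or control 3 (0.0586). Clcn1 and Clcn2, genes of plasma membrane channels, differed by 0.020 and -0.033, with overlapping groups and 95% intervals of -0.10 to 0.14 and -0.16 to 0.09. The difference between the 2 kinds of ClC gene was not tested.

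**Figure D5:**
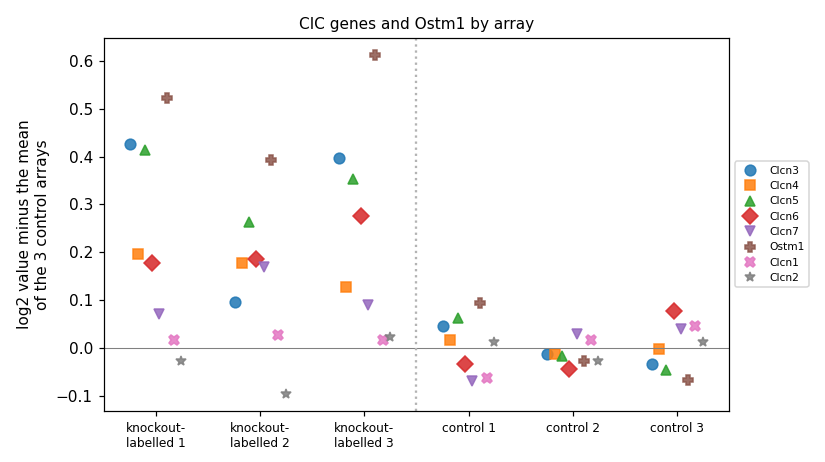
Log2 values of 7 ClC genes and Ostm1 on each array, minus the mean of the 3 control arrays. Clcn3 to Clcn7 and Ostm1 are each higher in all knockout-labelled pools than in any control pool, most of all Ostm1 (difference 0.51), while Clcn1 and Clcn2 stay near 0.

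None of the 9 Slc9 genes passed in limma, where 8.49% of all genes did. Of the 9, 3 had an unadjusted p under 0.05, all negative. Of all 19938 genes 4402 had such a p, 2104 of them with a negative difference. Slc9a7, for a sodium-proton exchanger of the Golgi, read 6.90, 6.74 and 6.51 in knockout-labelled pools and 7.08, 7.07 and 7.01 in control pools (-0.34 ± 0.10, limma adjusted p = 0.0907). Slc9a2, for a plasma membrane exchanger of epithelia, read 6.41, 6.12 and 6.21 in knockout-labelled pools against 6.48, 6.59 and 6.52 in control pools (-0.28 ± 0.08, adjusted p = 0.0907). Both had groups apart, and both passed with array weights (0.0282 and 0.0359) and without knockout-labelled 1 (0.0215 and 0.0162).

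Slc9a3r1, for a scaffold that holds the Slc9a3 exchanger and the chloride channel Cftr at the apical membrane, read 9.30, 9.01 and 8.84 in knockout-labelled pools and 9.40, 9.38 and 9.35 in control pools (-0.33 ± 0.11, limma adjusted p = 0.140). It too passed with array weights (0.0433) and without knockout-labelled 1 (0.00915). Like Slc9a7 and the ciliated marker mean, Slc9a3r1 was highest on knockout-labelled 1 and lowest on knockout-labelled 3 within that group. Among the control pools Slc9a3r1 was lowest on control 3 and the ciliated marker mean on control 2 (9.03). What part ciliated cells have in these values was not tested. The second scaffold, Slc9a3r2, overlapped between groups, at 9.86, 9.77 and 9.89 in knockout-labelled pools and 9.88, 9.80 and 9.90 in control pools. Slc9a9, an endosomal exchanger gene, spread over 7.33, 6.40 and 6.19 within the knockout-labelled pools, more than its difference of -0.13.

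Anoctamin genes encode calcium-activated chloride channels and lipid scramblases. In limma 0 of 9 passed, against 8.49% of all genes. An unadjusted p under 0.05 was found for 4402 of all 19938 genes and for 1 of these 9. That gene, Ano10, read 9.04, 9.22 and 9.15 in knockout-labelled pools and 8.87, 9.0 and 8.96 in control pools (0.19 ± 0.07, adjusted p = 0.143). Ano1, the calcium-activated chloride channel gene of airway epithelium, read 8.42, 8.74 and 8.78 in knockout-labelled pools and 8.85, 8.30 and 8.45 in control pools. Its groups overlapped throughout, and the 95% interval of its difference, -0.26 to 0.49, holds differences of either sign. The scramblase gene Ano6 was held more closely, at 10.84 to 10.92 in knockout-labelled pools and 10.88 to 10.94 in control pools, with an interval of -0.15 to 0.09. The 2 probe sets of Ano3 differed in sign, at 0.20 for the brighter and -0.11 for the dimmer.

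Other genes of chloride, bicarbonate and proton transport, 64 measured in 5 lists, gave 5 that rose (7.81%, against 3.36% of all genes), 5 that fell (7.81%, against 5.13%) and 54 that did not pass, with a median difference of 0.015. Of 23 further genes of chloride channels, their subunits and related proteins, 3 rose and 2 fell (3.36% and 5.13% of all genes). Besides Ostm1, the volume-regulated anion channel subunits Lrrc8b and Lrrc8c rose, by 0.38 ± 0.05 and 0.42 ± 0.06 (SE; limma adjusted p = 0.00834 and 0.00970). Lrrc8b read 8.89, 8.86 and 8.87 in knockout-labelled pools and 8.55, 8.43 and 8.50 in control pools. Clic3 and Clic6, genes of intracellular chloride channel proteins, fell by 0.36 ± 0.07 and 0.46 ± 0.10 (adjusted p = 0.0206 and 0.0399). Clic6 was outside the rule for named genes and was chosen after its values were seen, as were the 2 genes that follow.

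Cftr, the cyclic AMP-regulated chloride and bicarbonate channel gene, read 9.87, 9.53 and 9.73 in knockout-labelled pools and 9.95, 10.14 and 9.98 in control pools. The groups lay apart, and the difference of -0.31 ± 0.10 did not pass (limma adjusted p = 0.110), though it did without knockout-labelled 1 (0.0417). Clca1, a secreted goblet cell protein gene whose product acts on the Ano1 channel, read 7.19, 7.43 and 9.09 in knockout-labelled pools and 6.07, 6.31 and 5.86 in control pools. The difference of 1.82 ± 0.46 was large and uneven, with knockout-labelled 3 far above the others, and it did not pass (limma adjusted p = 0.0599). It passed with array weights (0.0180), without knockout-labelled 1 (0.0268) and without knockout-labelled 3 (0.0166), where the difference was 1.23. The 7 goblet markers measured of 8 listed averaged 6.55, 6.43 and 6.87 in knockout-labelled pools and 6.64, 6.68 and 6.51 in control pools, with no call. Their mean, like Clca1, was highest on knockout-labelled 3, and the part of goblet cells in the Clca1 difference was not tested.

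Among the 10 genes of the WNK pathway, whose kinases regulate the Slc12 cotransporters, 0 rose and 2 fell (3.36% and 5.13% of all genes). These were the kinase gene Wnk2 (-0.37 ± 0.08, limma adjusted p = 0.0331) and Klhl3 (-0.29 ± 0.06, 0.0303), whose product marks WNK kinases for degradation. Wnk1, a further kinase gene, differed by 0.020 with overlapping groups. Of 10 exchanger regulator genes Chp1, for a calcium-binding cofactor of sodium-proton exchangers, alone passed and rose by 0.25 ± 0.06 (adjusted p = 0.0394). Among 14 genes of proton pumps and monocarboxylate carriers, which move protons with lactate, Slc16a1 rose by 0.47 ± 0.10 (adjusted p = 0.0333) and Slc16a3 fell by 0.32 ± 0.06 (adjusted p = 0.0240).

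The 7 genes that mark ionocytes and renal intercalated cells, in which pendrin is also found, gave 0 calls in limma, against 8.49% of all genes. They also gave 0 at an unadjusted p under 0.05, where 4402 of all 19938 genes lay. Foxi1, the transcription factor gene of these cells, read 5.59, 5.56 and 5.52 in knockout-labelled pools and 5.58, 5.62 and 5.63 in control pools. Ascl3 read 5.26, 5.34 and 5.24 in knockout-labelled pools against 5.33, 5.24 and 5.34 in control pools. The groups overlapped in both. Tfcp2l1, a brighter gene of the list named after its values were seen, overlapped too. It read 9.96, 9.80 and 10.18 in knockout-labelled pools against 9.83, 9.96 and 9.99 in control pools. No detection calls were available for the dim genes Foxi1 and Ascl3, and the part of such cells in the Slc26a4 difference was not tested.

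Of the 10 partner genes that passed, Lrrc8b alone kept its call whichever array was left out (adjusted p up to 0.0493). Lrrc8c lost it without control 2 (0.0520), and Ostm1 without control 2 or control 3. Clic3, Clic6, Wnk2, Klhl3, Chp1, Slc16a1 and Slc16a3 each lost theirs whichever control pool was left out, with adjusted p values no higher than 0.161. Without knockout-labelled 3 all of these but Clic3 lost theirs too. Clic6 and Klhl3 were also lost without knockout-labelled 2, and Chp1 without knockout-labelled 1. With the replicate number as a block Wnk2 (0.0545) and Chp1 (0.0642) did not pass. With pool sex as a covariate Slc16a1 (0.0618), Klhl3 (0.0576), Clic6 (0.0671) and Chp1 (0.0655) did not, nor did Chp1 after quantile normalization again (0.0632).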

How the data were processed

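Expression was measured on 6 Affymetrix arrays, 3 of knockout-labelled and 3 of control pools, grouped by array title. The authors deposited log2 values per probe set. Per the submitters' processing notes, RMA was run in Affymetrix Expression Console 1.1. This method removes background, makes array distributions alike and summarises probe sets, so a change shared by most genes would be removed. Array medians were 6.77 to 6.81. The number of arrays limits the precision, and the sources used here give no genome build for the array. Of 35556 probe sets, 21789 had 1 gene symbol, 1621 several and 12146 none. Of those with 1 symbol 21698 matched RefSeq (GRCm38.p6) by Entrez identifier. The brightest probe set per gene left 19938 genes. Labels do not say whether pools differ beyond the mice in them, so p-values measure the spread between these pools.

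Groups were compared with limma 3.58.1 (R 4.3.3), using lmFit and then eBayes with no trend (two-sided, Benjamini-Hochberg over all genes, threshold 0.05, no filter). On data simulated from these genes, 62 of 100 changes of 0.5 and 88 of 100 changes of 1 were recovered, with 4 of the unchanged genes called. The simulated noise was normal and independent between genes, with no pool, sex or cell type structure, and few genes were changed. These counts are therefore not the error rates of the real comparison. Named by rule were the called members, the brightest and smallest-p member of each family, up to 4 called genes of each partner list and Gpr116. Other members were named to describe the families after their values were seen. The members and lists were chosen with earlier results of these data known, and the motifs likewise. Alternatives were a filter on dim genes, a variance trend, array weights, quantile normalization again, median centring, the dimmest probe set, pool sex, a replicate block and leaving out each array. Same-numbered arrays deviated weakly together from their group means (correlations 0.192, 0.103 and 0.111 for numbers 1, 2 and 3). Each was above the limit of 0.1, so the replicate number was used as a block in an alternative fit. The reported calls come from the fit without the block, and blocked values are printed where they change a call. Numbers 1 and 2 each join a male and a female pool. The labels do not say what the numbers mark.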

Additional observations from a re-analysis of the deposited data

How the results depend on the processing

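With 3 pools per group, the calls of most members depended on single arrays. As 1 array at a time was left out, members called higher ran from 1 to 5 and lower from 1 to 9, partner genes from 1 to 8 and from 0 to 7, and all genes from 144 to 835 and from 301 to 1265. Where 0 partner genes were lower in limma, 7 or 8 had an unadjusted p under 0.05. With array weights 9 members were lower and 8 partner genes higher, with median centring 3 members were lower, and with pool sex as a covariate 3 partner genes were lower. In the other alternatives these counts stayed within 1.5 times the reported ones. The replicate block gave 6 members higher and 4 lower. Beyond the calls named above for Slc12a2, Slc4a1, Car1, Wnk2 and Chp1, it changed 1 other call, that of the partner gene Ahcyl2, which passed (limma adjusted p = 0.0459, against 0.0576 without the block). Of 360 values of single named genes under an alternative, 285 kept direction and side of the threshold, 2 came to exactly 0 with no call (Ano6 with median centring, Slc9a3r2 without control 3), 66 lost a call, 4 gained one and 3 turned sign. All 3 were of Slc9a3r2, at 0.0074 with array weights, 0.010 with median centring and 0.015 without knockout-labelled 2, beside -0.020 as reported and -0.050 to 0.015 over all fits that left out 1 array. For these changes the cause was not tested.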
